A study of Mus musculus with 2 samples.

Results

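The set comprised 10 genes that mark the choroid plexus epithelium in brain tissue: Ttr, Folr1, Aqp1, Slc4a5, Clic6, Kl, Prlr, Calml4, Msx1 and Sostdc1. Each symbol was matched to its Ensembl identifier in the gene tables, and all 10 were found among 43346 Ensembl genes. The rule uses no measured value. The genes were followed in total RNA of whole midbrain from B6NCrl mouse embryos at embryonic day 16.5. There was 1 group with 2 libraries, labelled biological replicates 1 and 2, with no other genotype, treatment or age. Embryos of both sexes were pooled, 37 of them for replicate 2 and a number that the labels do not give for replicate 1. Both pools carry the same donor identifier, and the labels do not say whether they came from separate litters. Each library was made from 10 ng of RNA longer than 200 nucleotides, with spike-in RNA added. With 1 library per pool no p-value can be had, and every difference between the replicates is a description of these libraries.

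The choroid plexus is a folded secretory epithelium that makes cerebrospinal fluid and carries hormones and vitamins between blood and brain. It arises from the dorsal midline of the neural tube and lies in the lateral ventricles, the third ventricle and the fourth ventricle, while the aqueduct that runs through the midbrain has none of its own. Its epithelium is known for very high transthyretin messenger RNA, for ion and water transporters on its apical face, and for receptors that take up folate and sense prolactin. Several of the 10 genes are also made elsewhere: Ttr in liver and retinal pigment epithelium, Msx1 in the roof plate, Prlr and Kl in endocrine tissues and kidney.

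The tables held 31830355 expected counts in replicate 1 and 36576263 in replicate 2. An expected count is the estimated number of reads of a gene, and TPM is that number corrected for gene length and depth, so that levels of different genes can be set side by side. At a level of at least 1 TPM in both libraries, 15223 genes were detected. Of a list of 8 midbrain genes, 7 were detected, led by Otx2 at 56.3 TPM in replicate 1 and 64.5 TPM in replicate 2 and by Th at 15.1 and 23.97 TPM. Otx2 is not particular to midbrain here, as it is also on the wider list of choroid plexus epithelium genes used below. En2 stayed below 1 TPM at 0.61 and 0.46.

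In both pools Ttr stood far above the rest, Folr1 was the only other gene of the set above the median detected gene, and Kl and Slc4a5 were below 1 TPM. The median level over the 10 genes was 6.31 TPM in replicate 1 and 6.23 TPM in replicate 2 (mean 6.27 ± 0.057, SD, n = 2), beside 17.2 and 16.8 TPM over all detected genes. The summed level was 471 TPM in replicate 1 and 399 TPM in replicate 2, of which Ttr held 87.1% and 85.5%. Without Ttr the sums were 60.7 and 57.6 TPM. Of the 10 genes, 8 reached 1 TPM in both libraries. In bulk tissue, fewer cells of a type and less RNA per cell cannot be told apart, so these levels give neither a number of choroid plexus cells nor a level per cell.

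**Figure D1:**
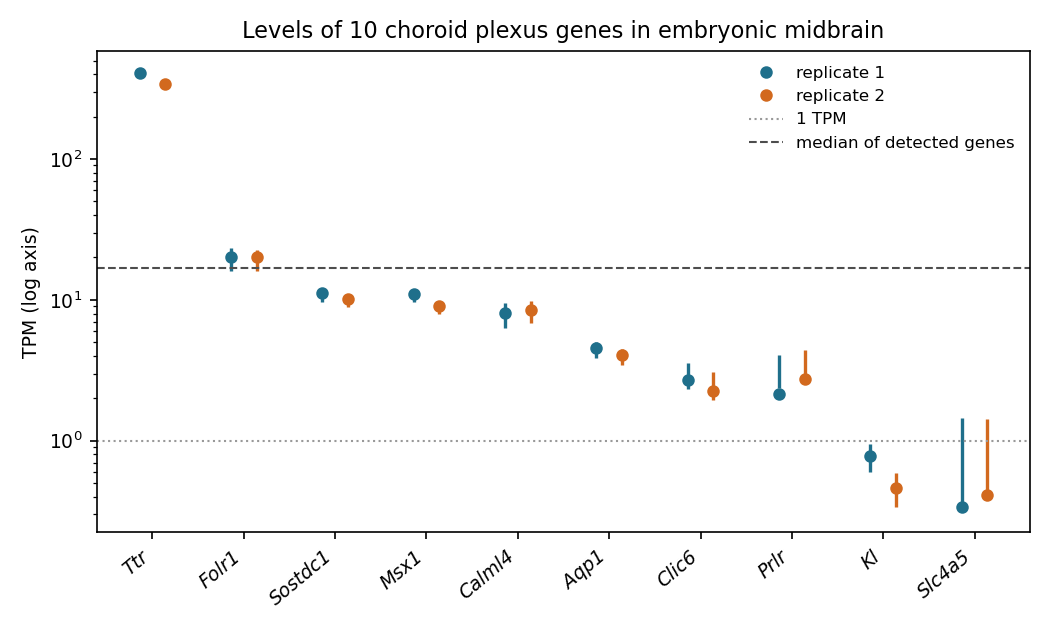
TPM of each gene (log axis) in replicates 1 and 2 as points, with the deposited credibility bounds as bars; lines mark 1 TPM and the median of detected genes averaged over the replicates. Ttr lies at 341 TPM or more in both libraries and Kl and Slc4a5 lie below 1 TPM.

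Neighbours in the order of mean TPM were called apart only where both libraries of the upper gene exceeded both of the lower gene and their credibility bounds did not overlap in either library. By that rule Ttr was apart from Folr1, by 18.7-fold. Folr1 was apart from Sostdc1, by 1.89-fold. Sostdc1, Msx1 and Calml4 were not apart from their neighbours among themselves. Calml4 was apart from Aqp1 (1.91-fold), and Aqp1 from Clic6 (1.74-fold). Clic6 and Prlr were not apart, nor were Kl and Slc4a5, while Prlr exceeded Kl by 3.94-fold. Between neighbours the set fell into 6 levels: Ttr, Folr1, 3 genes between 8.22 and 10.6 TPM, Aqp1, Clic6 with Prlr, and Kl with Slc4a5. Aqp1 and Prlr are not neighbours in this order, and their bounds overlapped in both libraries. They ran from 3.85 to 5.05 and from 3.43 to 4.46 TPM for Aqp1, against 2.37 to 4.08 and 2.64 to 4.43 TPM for Prlr. Aqp1 was therefore apart from Clic6 but not from Prlr. With posterior mean TPM, the deposited alternative estimate, Prlr ranked above Clic6 and Slc4a5 above Kl, so the order within both lower pairs depended on the estimator.

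Ttr (ENSMUSG00000061808, plus strand of chromosome 18, 20665280 to 20674321, GRCm38) encodes transthyretin, which carries thyroxine and the retinol-binding protein complex. Its expected count was 8501 in replicate 1 and 8237 in replicate 2. Its level was 410 TPM in replicate 1 and 341 TPM in replicate 2 (mean 376 ± 48.9, SD, n = 2). This placed it 348th by mean TPM among all Ensembl genes and 316th among protein-coding genes. The deposited TPM lay just above its own credibility bounds in both libraries, which ran from 389 to 406 TPM and from 325 to 339 TPM. The bounds of the pools did not overlap, and replicate 1 was the higher.

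Ttr was set against its functional partners, a list of 15 genes for carriage of thyroid hormone and retinol, of which 10 were detected. Thra, a thyroid hormone receptor, was at 118 and 124 TPM in replicates 1 and 2, and Slc7a5, an amino acid transporter that also moves thyroid hormone into cells, was at 41.3 and 42.4 TPM. The other serum carriers of thyroxine were near 0: Alb had 2 and 1 expected counts, and Serpina7 had none in either library. Dio3, which inactivates thyroid hormone, was at 2.85 TPM in replicate 1 and 1.32 TPM in replicate 2. The activating enzyme Dio2 was at 0.090 and 0.060 TPM. Ttr was thus the only one of the 3 serum thyroxine carriers with more than 2 counts in either library.

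Folr1 (ENSMUSG00000001827, chr7:101858331-101870788, minus strand), the folate receptor that carries folate across the choroid plexus, had 215 expected counts in replicate 1 and 251 in replicate 2. Its level was 20.1 TPM in replicate 1 and 20.2 TPM in replicate 2 (mean 20.1 ± 0.071, SD, n = 2), and of the 10 genes it had the log2 ratio between pools nearest to 0. Its paralog Folr2, known from macrophages, was at 1.05 and 0.85 TPM, and Folr1 exceeded it by 21.3-fold (geometric mean of the TPM ratios in the libraries, as for every paralog here). Of 11 genes for folate transport and use, 9 were detected. The reduced folate carrier Slc19a1, at 37.0 and 36.8 TPM, was above Folr1, and the proton-coupled carrier Slc46a1, at 19.5 and 21.5 TPM, was close to it. Izumo1r, another member of the folate receptor family, had no count.

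Folr1 reads were estimated to come mostly from its transcript Folr1-201, which encodes the whole receptor in 765 coding bases. Folr1-201 held 67.1% of the gene's expected counts in replicate 1 and 73.8% in replicate 2, but 45.2% and 49.5% of its TPM. With posterior mean TPM its share was 34.7% and 40.9%, so it depended on the estimator. The short models Folr1-213 (331 bases) and Folr1-206 (350 bases) made up most of the remaining TPM, with 18.9% and 23.6% for Folr1-213 and 18.1% and 20.0% for Folr1-206. Each rested on between 16.3 and 23.7 expected counts, and their annotated start sites, 101869322 and 101869018, lie upstream of that of Folr1-201, 101864145. Of 17 annotated transcripts, 7 had counts in replicate 1 and 5 in replicate 2. The share of short forms is therefore large only after division by length.

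Of the 3 genes of the set for ion and water movement, Aqp1 was the highest. Aqp1 (ENSMUSG00000004655, chr6:55336432-55348555, plus strand), the water channel of the apical membrane, had 214 and 220 expected counts, or 4.58 TPM in replicate 1 and 4.04 TPM in replicate 2 (mean 4.31 ± 0.38, SD, n = 2). Its credibility bounds overlapped between the pools. Aqp4, the water channel of astrocytes, was at 2.67 TPM in replicate 1 and 6.96 TPM in replicate 2. Aqp1 was thus above Aqp4 in replicate 1 and below it in replicate 2, and it was Aqp4 whose level differed.

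Clic6 (ENSMUSG00000022949, chr16:92485736-92541243, plus strand), of the chloride intracellular channel family, had 182 and 179 expected counts. Its level was 2.69 TPM in replicate 1 and 2.27 TPM in replicate 2 (mean 2.48 ± 0.30, SD, n = 2). All of its counts were assigned to Clic6-201. Its relatives Clic1 and Clic4, which many cell types make, were 18.1-fold and 17.8-fold higher. Clic5 was at 0.27 TPM in both libraries. Clic3, at 2.90 and 2.37 TPM, was close to Clic6. Clic6 was therefore a minor member of its family in whole midbrain RNA, with Clic5 below it.

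Slc4a5 (ENSMUSG00000068323, chr6:83219828-83304945, plus strand), a sodium bicarbonate cotransporter of the apical membrane, was the lowest of the 10, with 20 expected counts in replicate 1 and 31 in replicate 2. Its level was 0.34 TPM in replicate 1 and 0.41 TPM in replicate 2 (mean 0.38 ± 0.049, SD, n = 2). The posterior mean TPM was 2.44 times that value in replicate 1 and 2.12 times in replicate 2, and the credibility bounds ran from 0.32 to 1.45 TPM and from 0.38 to 1.43 TPM. The main coding form Slc4a5-201 held 94.7% and 93.8% of the counts but 60.0% and 66.1% of the TPM. The remainder sat on short noncoding models with fewer than 2 counts each: Slc4a5-205 held 11.0% and 33.9% of the TPM, and Slc4a5-204 held 28.9% and 0%. With posterior mean TPM the mean share of Slc4a5-201 was 16.0% in place of 63.1%. At this depth the level of Slc4a5 is known only to within the bounds given. The related bicarbonate transporters Slc4a4 and Slc4a7, made by glia and neurons, were 15.3-fold and 33.0-fold higher.

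The wider list of 21 transport genes of cerebrospinal fluid secretion was detected in full. It was led by subunits of the sodium pump, Atp1b1 at 201 and 259 TPM and Atp1b2 at 55.6 and 79.2 TPM. Clcn3, of the chloride channel gene family, followed at 62.7 and 65.4 TPM. All 3 are also made by neurons or glia. All 3 transport genes of the set were below the list's median of 12.8 TPM in replicate 1 and 11.8 TPM in replicate 2.

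Prlr (ENSMUSG00000005268, chr15:10177238-10349180, plus strand) encodes the prolactin receptor. Its expected count was 202 in replicate 1 and 266 in replicate 2. Its level was 2.14 TPM in replicate 1 and 2.75 TPM in replicate 2 (mean 2.45 ± 0.43, SD, n = 2). The deposited TPM of replicate 1 lay below its credibility bounds of 2.37 to 4.08 TPM, and the posterior mean TPM was 3.18 and 3.52. The receptor exists as a long form, which signals through Jak2 and Stat5, and as short forms that lack most of the intracellular domain. These share their coding sequence up to the junction with the last coding exon. The lines below give, 5′ to 3′ on the coding strand, the last 20 shared coding bases in lower case and the first 36 bases that are particular to each form in capitals, from the GENCODE M21 transcripts. They are shown because reads were assigned to the long form and not to the short ones.
Prlr-202, long form of 608 residues: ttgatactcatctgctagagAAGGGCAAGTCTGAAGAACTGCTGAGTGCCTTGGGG
Prlr-204, short form of 292 residues: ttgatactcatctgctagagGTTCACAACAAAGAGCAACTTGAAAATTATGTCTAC
Prlr-205, short form of 310 residues: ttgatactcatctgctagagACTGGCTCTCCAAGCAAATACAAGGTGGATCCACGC
Prlr-212, short form of 303 residues: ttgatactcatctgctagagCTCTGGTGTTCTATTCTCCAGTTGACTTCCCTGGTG

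Prlr-202 had 126 expected counts in replicate 1 and 181 in replicate 2, which was 62.3% and 68.1% of the gene's counts and 32.5% and 31.2% of its TPM. With posterior mean TPM its share of TPM was 21.2% and 23.5%. Prlr-204, Prlr-205 and Prlr-212, chosen for mention after their values were seen, had 0 counts in both libraries. For counting error alone, a limit of 3 counts is 1.49% of the gene's counts in replicate 1 and 1.13% in replicate 2. That limit leaves out the error of dividing reads among transcripts that share sequence, so it is no ceiling on the short forms. The upper credibility bounds were wider for the shortest models: 0.47 and 0.43 TPM for Prlr-204, 0.071 and 0.046 TPM for Prlr-205, and 0.57 and 0.47 TPM for Prlr-212, beside 0.69 and 0.86 TPM estimated for Prlr-202. The last coding exon of the long form encodes 328 residues, against 12, 30 and 23 in the short forms. Of these 4 complete coding forms, only the long one was assigned counts, within those bounds.

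Most of the remaining Prlr counts were assigned to Prlr-201, which is annotated as a retained intron and encodes no protein. It held 36.0% and 29.2% of the counts and 59.1% and 42.1% of the TPM. With posterior mean TPM its mean share of TPM was 30.9% in place of 50.6%. Prlr-203, a 564-base model, held 0% of the TPM in replicate 1 and 26.7% in replicate 2, the latter from 7.37 expected counts. Without Prlr-203 the gene stood at 2.14 TPM in replicate 1 and 2.01 TPM in replicate 2. That step kept Prlr-208, which had 1.6 counts and 0.15 TPM in replicate 1 and none in replicate 2. The transcripts that begin near the first start site described below, which include neither model, stood at 1.98 and 2.02 TPM. The higher Prlr level of replicate 2 on the TPM scale thus rested mostly on Prlr-203, while Prlr-202 was at 0.69 and 0.86 TPM. Scaled expected counts, which take no part in this division by length, were 1.16-fold higher in replicate 2.

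**Figure D2:**
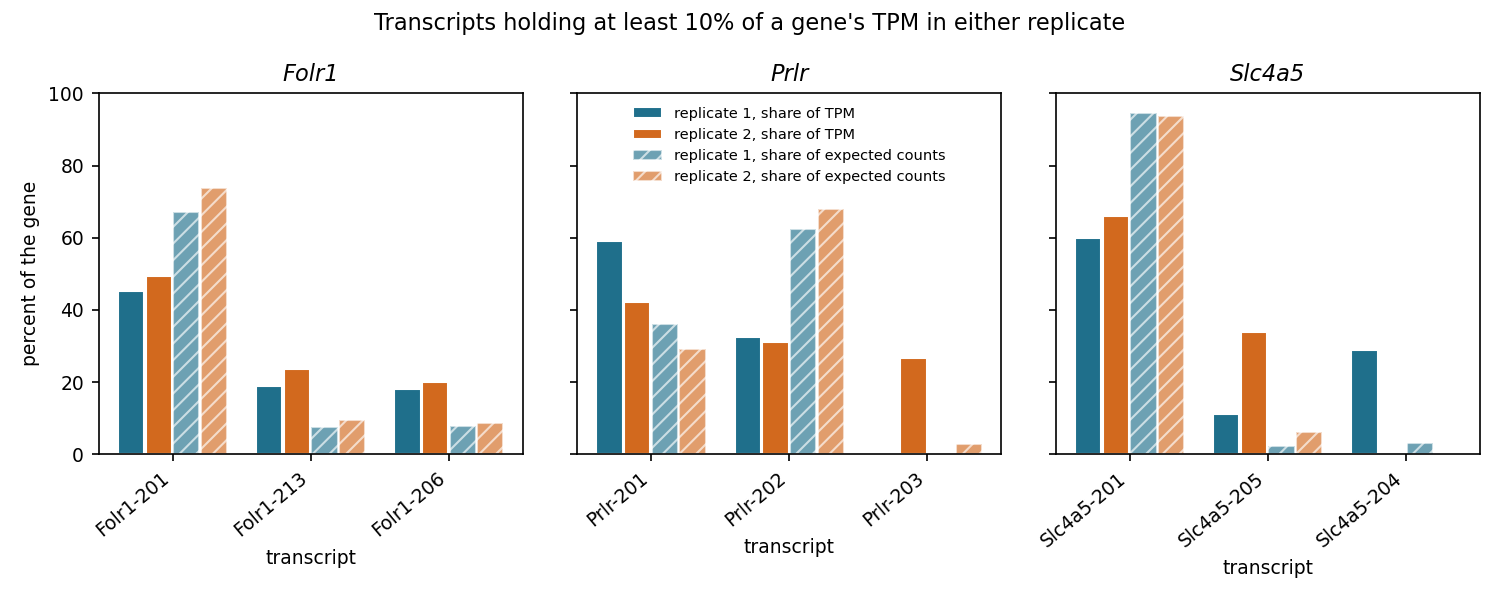
Percent of the gene's TPM (plain bars) and of its expected counts (hatched bars) held by transcripts of Folr1, Prlr and Slc4a5 in replicates 1 and 2. The long models Folr1-201, Prlr-202 and Slc4a5-201 hold between 62.3% and 94.7% of the counts but between 31.2% and 66.1% of the TPM.

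Nearly all Prlr counts were assigned to transcripts that begin near the first of 3 start sites that RefSeq gives for the gene. The 5 GENCODE transcripts starting within 1000 bases of that site (position 10177238 of chromosome 15) held 200.4 and 258.6 expected counts, or 99.2% and 97.2% of the gene. The remaining 1.6 and 7.37 counts were on transcripts that begin near none of the sites. The 3 transcripts near the second site (position 10223906), which are the short forms above, held 0. No GENCODE transcript of the gene began within that distance of the third. Reads were assigned by the quantifier over whole transcripts, so a start site was inferred from the form and not observed. The windows of both sites are given to show their different sequences, as RefSeq promoter stretches of GRCm38.p6, 5′ to 3′ on the plus strand. In the first, capitals mark CG dinucleotides; in the second, capitals mark a forkhead word, TGTTTAC, which reads GTAAACA on the opposite strand, 215 bases before the start site.
Prlr first site, chr15:10177088-10177187: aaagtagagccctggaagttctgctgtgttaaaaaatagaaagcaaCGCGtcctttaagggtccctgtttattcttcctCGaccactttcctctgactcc
Prlr second site, chr15:10223673-10223715: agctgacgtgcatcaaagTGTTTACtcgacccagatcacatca

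A set of 3 short words was searched on both strands of the 300-base RefSeq windows. Windows were at hand for 6 of the 10 genes, with 8 start sites: Msx1, Kl, Aqp1, Slc4a5, Calml4 and Prlr; the genes without an entry were Ttr, Folr1, Clic6 and Sostdc1. The forkhead word GTAAACA was found in 1 of 8 windows, the Prlr site above, and in 3.65% of all 32851 windows. TAATCC, the core word of Otx factors, was found in 0 of 8 windows and in 7.06% of all windows. CAATTA, a word of Msx and other homeodomain factors, was found in 0 of 8 and in 8.0% of all. These counts say only whether the letters are in these windows. The windows differed widely in base composition: over the 250 bases before the start site, GC content ran from 32.8% at the third Prlr site to 68.0% at Msx1, beside a median of 52.4% over all windows. The Msx1 stretch is shown as the most CpG-rich of them, with 11 CG dinucleotides (capitals) in the 100 bases from 150 to 51 before the start site, 5′ to 3′ on the minus strand of GRCm38.p6.
Msx1, chr5:37824636-37824735: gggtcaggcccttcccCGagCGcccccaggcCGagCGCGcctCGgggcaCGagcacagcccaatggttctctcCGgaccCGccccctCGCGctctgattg

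Of 11 genes of the prolactin receptor pathway, 9 were detected. The ligand Prl had no count in either library, and Gh, the other pituitary hormone of the family, had 0 counts in replicate 1 and 17 in replicate 2. Socs2, a feedback inhibitor of Stat5 signalling, was at 110.0 and 101 TPM, Ptpn11 at 18.1 and 15.4 TPM and Stat5b at 18.9 and 14.4 TPM. The growth hormone receptor Ghr, the nearest relative of Prlr, was at 6.41 and 6.31 TPM, which was 2.62-fold above Prlr. The receptor and its signalling genes were thus measured in tissue whose ligand transcript was not detectable at this depth.

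Kl (ENSMUSG00000058488, chr5:150952607-150993817, plus strand) encodes klotho, the co-receptor that lets FGF receptors bind FGF23. It had 72 expected counts in replicate 1 and 50 in replicate 2. Its level was 0.78 TPM in replicate 1 and 0.46 TPM in replicate 2 (mean 0.62 ± 0.23, SD, n = 2), with credibility bounds of 0.60 to 0.95 TPM and 0.34 to 0.59 TPM. The bounds did not overlap, and replicate 1 was the higher. Its paralog Klb had 3 and 7 counts, or 0.050 and 0.10 TPM. Of 12 klotho and FGF partners, 6 were detected, led by the sheddase Adam10 at 51.4 and 44.7 TPM, Fgf15 at 27.6 and 14.4 TPM and Fgfr1 at 20.4 and 20.2 TPM. Fgfr4 was at 0.68 and 0.50 TPM, Fgf23 was at 0.22 and 0.32 TPM, and the kidney genes Slc34a1 and Trpv5 had no count. Fgfr1 was therefore far above Kl, Fgfr4 was close to it, and the renal partners were not detectable at this depth.

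Calml4 (ENSMUSG00000032246, chr9:62858080-62875921, plus strand), a calmodulin-like protein of microvilli, had 98 and 121 expected counts. Its level was 8.03 TPM in replicate 1 and 8.41 TPM in replicate 2 (mean 8.22 ± 0.27, SD, n = 2), with overlapping credibility bounds. Of the proteins that hold microvillus tips together with Calml4 in gut epithelium, Ush1c was at 1.35 and 1.94 TPM and Cdhr2 at 0.19 and 0.30 TPM, while Myo7b and Anks4b had no count. Calml4 was thus measured with little or none of the rest of that complex.

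Msx1 and Sostdc1 belong to the BMP pathway. Sostdc1 (ENSMUSG00000036169, chr12:36314139-36318452, plus strand), a secreted antagonist of BMP and Wnt signals, had 341 and 360 expected counts. Its level was 11.2 TPM in replicate 1 and 10.1 TPM in replicate 2 (mean 10.6 ± 0.74, SD, n = 2). Its paralog Sost had 3 counts and 1 count. Msx1 (ENSMUSG00000048450, chr5:37820485-37824583, minus strand), a homeodomain repressor of the dorsal midline, had 372 and 357 expected counts. Its level was 11.0 TPM in replicate 1 and 9.03 TPM in replicate 2 (mean 10.0 ± 1.37, SD, n = 2). The paralogs Msx2, at 0.46 and 0.33 TPM, and Msx3, at 0.47 and 0.38 TPM, were below 1 TPM in both libraries. Msx1 and Sostdc1 were thus above 1 TPM, while the paralogs measured beside them, Msx2, Msx3 and Sost, were below it. The spliced form Msx1-201 held 95.2% and 97.7% of the Msx1 TPM, and the rest was assigned to an unspliced model. Of 17 BMP and Wnt partners, 11 were detected, led by the BMP target genes Id2 at 115 and 141 TPM, Id3 at 93.0 and 95.2 TPM and Id1 at 20.0 and 29.8 TPM.

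Between the pools, 6 of the 10 genes were lower in replicate 2 and 4 were higher, on expected counts scaled with trimmed means. The median log2 ratio of replicate 2 over replicate 1 was -0.12 over the set, beside 0.01 over the 17773 genes whose mean expected count was 10 or more, of which 48.1% were lower in replicate 2. For 7 of the 10 genes the 95% counting interval of the log2 ratio held 0. The exceptions were Ttr at -0.23 (interval -0.27 to -0.18), Msx1 at -0.24 (-0.46 to -0.03) and Kl at -0.70 (-1.26 to -0.17), each higher in replicate 1, by 1.17-fold, 1.18-fold and 1.63-fold. These intervals cover counting error only, and the spread between embryo pools is not in them.

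Folr1 (0.04), Calml4 (0.12), Prlr (0.21) and Slc4a5 (0.44) had log2 ratios above 0, and Sostdc1 (-0.10), Aqp1 (-0.14) and Clic6 (-0.21) below 0, all with intervals that held 0. The log2 excess of Ttr over Msx1 was 5.22 in replicate 1 and 5.24 in replicate 2 on the TPM scale, and over Clic6 it was 7.25 and 7.23. Over Folr1 it was 4.35 and 4.08, and over Kl 9.04 and 9.53. It was 5.67 and 5.34 over Calml4, 7.58 and 6.95 over Prlr, and 10.24 and 9.70 over Slc4a5. The Prlr value of replicate 2 rested partly on Prlr-203, without which Prlr stood at 2.14 and 2.01 TPM. The values over Slc4a5 rested partly on short models with few counts. Ttr, Msx1 and Clic6 thus had nearly the same proportions in both pools. The excess of Ttr was smaller in replicate 2 for Folr1, Calml4, Prlr and Slc4a5, and larger for Kl. It was also smaller for Sostdc1 (5.20 and 5.08) and Aqp1 (6.48 and 6.40). The counting intervals between the pools of Calml4, Slc4a5, Kl, Sostdc1 and Aqp1 held the ratio of Ttr. That of Folr1 began at it, at -0.23, and that of Prlr lay above it. A ratio like that of Ttr was common: 1067 of 14412 genes (7.40%) lay within 0.05 of it.

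Kl was the only gene of the 9 with a mean count of at least 50 that was at least 1.5-fold higher in replicate 1, and none was 1.5-fold higher in replicate 2. Among all 14412 genes with such counts, 1.33% were at least 1.5-fold higher in replicate 1 and 2.12% in replicate 2. At 2-fold the percentages were 0.291% and 0.354%, and no gene of the set reached it. Genes with a mean count from 50 to below 500, the range of all 9 but Ttr, passed 1.5-fold in 3.21% (replicate 1 higher) and 5.13% (replicate 2 higher). With 9 genes, a single gene past the fold is no result about the set. The central 95% of genes in that count range ran from -0.65 to 0.74 in log2 ratio, just short of Kl. The mean count of Kl was 61, near the lower end of that range, and the spread of genes with counts like it was not taken alone. The count of 1 became 0 when TPM with 0.5 added replaced the counts, and 6 genes when spike-in counts set the scale. The added 0.5 TPM is about as large as the level of Kl itself, 0.78 and 0.46 TPM. It shrinks the Kl ratio by construction, so that setting cannot decide the call. On the spike-in scale the median of all genes was itself -0.59, and all 10 genes were lower in replicate 2. The set stood 0.13 below the all-gene median, a distance that a change of scale factors cannot alter.

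**Figure D3:**
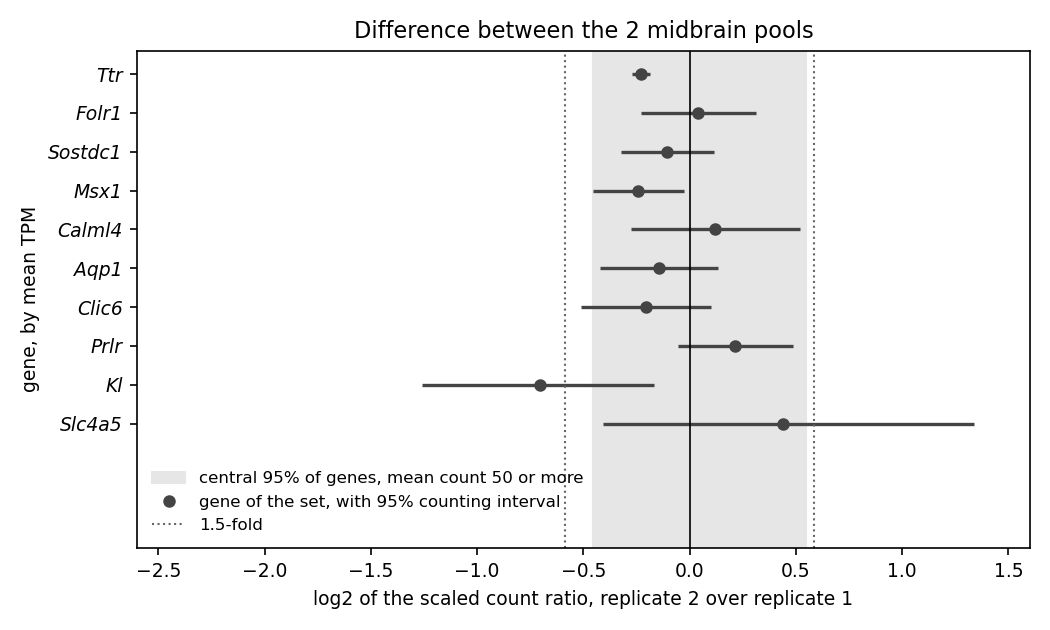
Log2 ratio of scaled expected counts, replicate 2 over replicate 1, for each gene with its 95% counting interval; shading is the central 95% of genes with a mean count of 50 or more (-0.45 to 0.55) and dotted lines mark 1.5-fold. Kl lies outside the shading, at -0.70, and the interval of Slc4a5 is the widest.

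Regional and dorsal midline genes also differed between the pools, and their part in the differences above was not tested. Of 20 roof plate and dorsal midline genes, 14 were detected, with a summed level of 103.7 TPM in replicate 1 and 68.1 TPM in replicate 2, and of 14 with a mean count of at least 50, 8 were lower and 6 higher in replicate 2. The list median went the other way from the sum, at 2.04 and 2.25 TPM. Of the 14 genes, 3 were at least 2-fold higher in replicate 1 and 1 in replicate 2, beside 0.291% and 0.354% of all genes with such counts. Of those higher in replicate 1, Rspo3, a Wnt agonist, was at 21.3 TPM in replicate 1 and 3.70 TPM in replicate 2. Zic1 was at 17.4 and 7.62 TPM, and Wnt8b at 1.73 and 0.75 TPM. Most of the gap in the sum came from Rspo3, Zic1 and Pax6, the last at 21.8 and 14.5 TPM. Car3 was 2-fold higher in replicate 2, at 1.55 and 2.99 TPM. Of 8 forebrain genes, 7 were detected, with a summed level of 119.7 TPM in replicate 1 and 92.5 TPM in replicate 2. Dlx1, at 46.8 and 26.3 TPM, made up most of that gap, and Dlx2 was at 9.23 and 3.74 TPM. Of the 7 forebrain genes with a mean count of at least 50, 5 were lower in replicate 2. The other 2 were higher there: Neurod6, at 11.4 and 15.2 TPM, and Emx2, at 9.14 and 11.9 TPM. The 8 midbrain genes summed to 89.3 and 112 TPM, the largest part from Otx2 (56.3 and 64.5 TPM), which is also on the wider choroid plexus list. Of 8 hindbrain genes only Gbx2, which the thalamus also makes, was detected, at 53.1 and 25.0 TPM. The 5 Hox genes of that list had at most 6 counts in either library. The regional lists thus held genes that were higher in either pool.

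Other genes of the choroid plexus epithelium were detected alongside the set. Of 40 listed genes, 32 reached 1 TPM in each library, with a median of 6.06 TPM in replicate 1 and 6.41 TPM in replicate 2, near the 6.31 and 6.23 TPM of the set. The highest were Atp1b1, Igfbp2, which binds insulin-like growth factors, at 207 and 219 TPM, and Igf2 at 75.9 and 72.8 TPM. Named for their known place in this epithelium and chosen after their values were seen, the potassium channel genes Kcnj13 and Kcne2 were at 6.73 and 5.85 TPM and at 6.83 and 7.07 TPM. Enpp2, which encodes autotaxin, was at 43.8 and 45.7 TPM. Below 1 TPM in both libraries were the tight junction gene Cldn2 (0.61 and 0.71), Tmem72 (0.45 and 0.55), Slco1a5 (0.38 and 0.62), Slc16a8 (0.47 and 0.22) and F5 (0.12 and 0.17), and Cox8b had no count. Of 31 of these genes with a mean count of at least 50, 9 were lower and 22 higher in replicate 2 and 0 reached 1.5-fold, against 6 lower and 3 higher of 9 in the set and 51.9% higher among all genes with such counts. Many genes of the wider list are also made in neurons, meninges or ependyma.

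**Figure D4:**
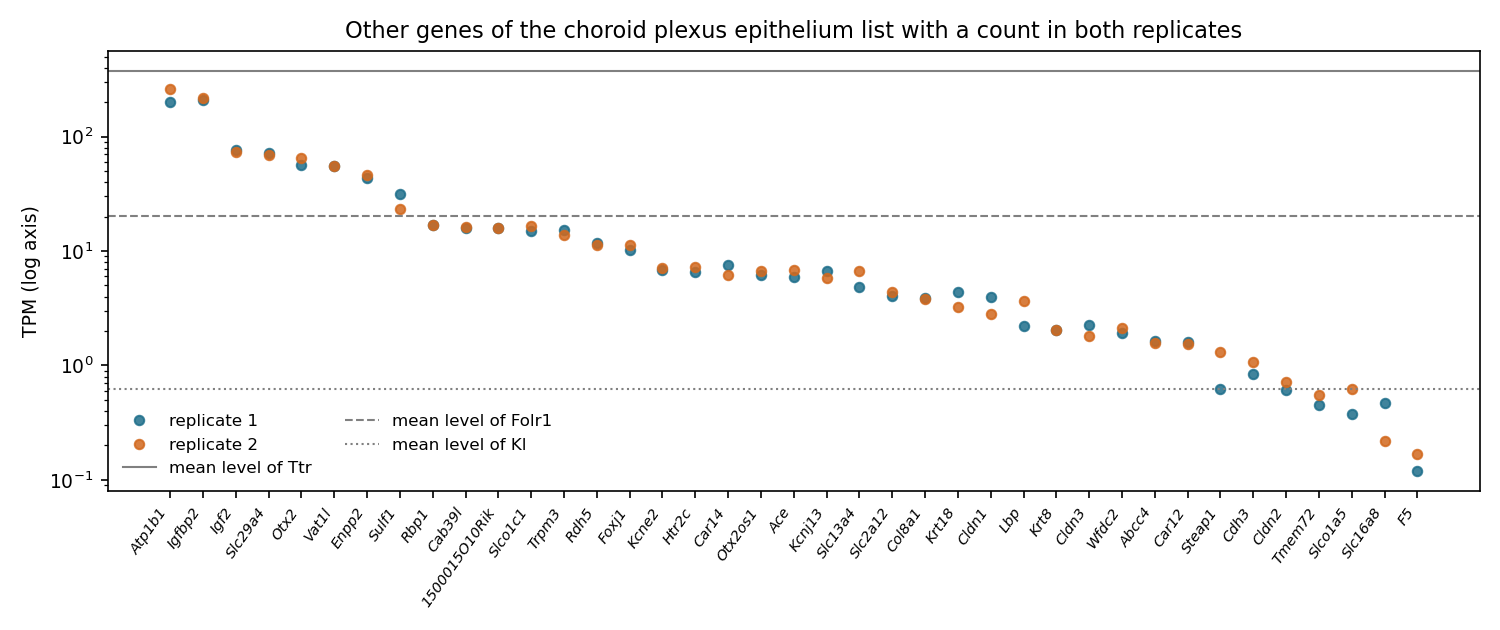
TPM (log axis) of 39 other choroid plexus genes with a count in both libraries, replicates 1 and 2 as points, with lines at the mean levels of Ttr, Folr1 and Kl. No gene of the list reaches the level of Ttr, and 7 of those plotted lie near or below 1 TPM.

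Markers of other cell types that could hold RNA of the set were measured beside it. Of 9 liver and yolk sac genes 3 were detected, with a summed level of 28.7 TPM in replicate 1 and 25.7 TPM in replicate 2, mostly Trf at 23.1 and 20.4 TPM, which glia also make. Apoa1 was at 2.94 and 3.22 TPM and Apoa2 at 2.59 and 1.77 TPM. Alb, Afp, Ahsg and Serpina1a had at most 8 counts, and Hnf4a and Fgb had none. Of 10 genes of retinal pigment epithelium and pineal gland only Rlbp1, which glia also make, was detected, at 11.5 and 14.0 TPM, and Rpe65 had no count. Mitf, at 0.79 and 0.86 TPM, had a posterior mean TPM of 27.2 and 23.7, so its place below 1 TPM depended on the estimator. Of 15 multiciliated ependyma genes 9 were detected, summing to 58.6 and 67.9 TPM, with Foxj1, which choroid plexus cells also use, at 10.2 and 11.4 TPM. Meningeal genes (9 of 12 detected) summed to 738 and 863 TPM, endothelial genes (9 of 9) to 201 and 188 TPM, and red cell genes (7 of 9) to 12793 and 11290 TPM. Astrocyte and radial glia genes (10 of 10) summed to 2271 and 2973 TPM. Red cell and endothelial sums were higher in replicate 1, as was Ttr, and meningeal, ependymal and glial sums were higher in replicate 2; their part in the levels of the set was not tested.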

How the data were processed

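Total RNA of 2 midbrain pools was measured by RNA sequencing, with tables of genes and of transcripts for each library. Per the deposited readme, reads were mapped to mm10 and quantified against GENCODE M4 with spike-ins. No aligner, quantifier or version is named in these sources, though the columns carry RSEM's names. Per the file headers, the deposited values are expected counts (estimated reads, not normalized), TPM and FPKM (corrected for effective length and scaled), the percent of a gene's TPM held by each transcript, posterior means of count and TPM, and credibility bounds of TPM whose level is not stated. All expected counts of the 10 genes were whole to the decimals deposited. Library totals were 31830355 and 36576263.

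From these were computed log2 ratios of expected counts with 0.5 added, scaled by edgeR 4.0.16 TMM on rounded counts (DESeq2 1.42.0 size factors, total counts and spike-in counts as alternatives), with exact Clopper-Pearson 95% intervals; intervals and the limit of 3 counts cover counting error only. The ratio step was tested on artificial counts. Calls were made from a mean count of 50. Symbols, coordinates and transcript models came from GENCODE M21 (GRCm38, the same assembly as mm10), which gave no symbol for 884 identifiers; a transcript is named only where its length was the same in the files. Of each list, the rule for naming took the 3 highest genes, those below 1 TPM in both libraries and those 2-fold apart with a mean count of at least 50. Of transcripts it took those with at least 10% of a gene's TPM. Not every gene that the rule took is named, least of all in the marker lists, and others are named for their role. The genes and lists were chosen with earlier results of these data known, and the regional lists were added last. No test was possible, as there is 1 group. Results for some listed genes are not reported here.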

Additional observations from a re-analysis of the deposited data

How the results depend on the processing

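No paired analysis was possible because there is 1 group. Direction held for all 10 genes between pools with DESeq2 size factors, total counts, 0 or 5 added to counts and posterior mean counts. With TPM and 0.5 added, no gene passed 1.5-fold (0 in place of 1), but the added value is about as large as the level of Kl and shrinks its ratio by construction. With spike-in counts as the scale the median log2 ratio was -0.72 and 6 genes passed 1.5-fold. The median TPM over the set, 6.27, became 6.15 with posterior mean TPM and 6.57 with rescaled FPKM. Leaving out each replicate gave a median of 6.23 to 6.31 TPM and a Ttr share of 85.5% to 87.1%. The share of all genes past 1.5-fold, 3.44% at a mean count of at least 50, was 8.94% at 10, 1.44% at 200 and 8.33% from 50 to below 500, the last chosen after seeing the data; past 2-fold it was 0.645%, 2.80%, 0.246% and 1.59%. The cause of these shifts was not tested beyond the counts that each setting admits. Slc4a5, at 20 and 31 counts, and the short transcript models are limited by depth.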
